A study of Mus musculus with 27 samples.

Results

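The Cyp2c genes considered here are 10 cytochrome P450 genes of mouse liver, namely Cyp2c29, Cyp2c37, Cyp2c38, Cyp2c39, Cyp2c40, Cyp2c50, Cyp2c54, Cyp2c69, Cyp2c70 and Cyp2c23. They were found by matching the Ensembl identifiers of the gene count table to these symbols, which gave 10 of the 55414 genes counted, and all 10 were among the 14114 genes with enough reads to test. The livers came from 27 female Balb/c mice, 8 weeks old, and whole-liver poly(A) RNA was sequenced. Of these, 14 mice had received intraperitoneal carbon tetrachloride (CCl4), a hepatotoxin, for 2 weeks, and the other 13 had received its vehicle, olive oil.

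The study asked whether lowering hyaluronan synthesis changes the injured liver. Within each arm, mice were given either no further agent, 4-methylumbelliferone (4MU), a small molecule that lowers hyaluronan synthesis, siLuc-LNP, a lipid nanoparticle with a non-targeting siRNA, or siHAS2-LNP, the same particle with an siRNA against hyaluronan synthase 2. 4MU was given daily by gavage at 600 mg/kg in carboxymethyl cellulose, and the nanoparticles were injected into the tail vein at 1 mg/kg and then at 0.5 mg/kg, with both begun ahead of the first CCl4 dose. The olive oil arm held control (n = 4, olive oil and tail vein saline), 4MU (n = 3), siLuc-LNP (n = 3) and siHAS2-LNP (n = 3). The paper's methods state that control mice also received carboxymethyl cellulose by gavage. The CCl4 arm held CCl4 (n = 2), CCl4 + 4MU (n = 4), CCl4 + siLuc-LNP (n = 4) and CCl4 + siHAS2-LNP (n = 4). Each comparison with CCl4 alone rested on 2 mice.

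Cyp2c enzymes sit in the endoplasmic reticulum membrane, take electrons from cytochrome P450 reductase and oxidise drugs, steroids and fatty acids. In the mouse several of them convert arachidonic acid into epoxyeicosatrienoic or hydroxyeicosatetraenoic acids, Cyp2c39 also hydroxylates retinoic acid, and Cyp2c70 makes muricholic acids, the rodent-specific bile acids. Several of the genes are transcribed mostly by the pericentral hepatocytes around the central vein, which also hold the Cyp2e1 that activates CCl4, and some, including Cyp2c40 and Cyp2c69, are known as female-predominant in mouse liver.

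Library totals ran from 18146198 to 29425937 counts, apart from CCl4 + siHAS2-LNP mouse 4 with 7044386. Values below are CPM (counts scaled to a common library total) on library sizes scaled by the trimmed mean of M-values. The mRNA of Has2, the siRNA's target, was at 0 counts in nearly all livers, the highest value being 2 counts in 1 CCl4 mouse, so these libraries gave no check of the knockdown. Of the 10 hepatocyte markers looked for, 9 were found and none was at 0 throughout a group. Their summed level was 189970 to 223660 CPM in control, 150180 and 92316 CPM in the 2 CCl4 mice and 176160 to 210470 CPM in CCl4 + 4MU. It was 129760 to 178300 CPM in CCl4 + siLuc-LNP, 130260 to 190250 CPM in CCl4 + siHAS2-LNP and 148410 to 196330 CPM over the treated olive oil groups. The summed level of 10 pericentral markers was 8765 to 11546 CPM in control, 1919 and 936 CPM in CCl4, 3026 to 3997 CPM in CCl4 + 4MU, 1575 to 3296 CPM in CCl4 + siLuc-LNP and 2658 to 3492 CPM in CCl4 + siHAS2-LNP. In whole liver, fewer cells of a type and less RNA per cell cannot be told apart.

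All 10 genes lay on chromosome 19 of the GRCm39 assembly, with 9 exons in each reference transcript. Cyp2c29 (39257849 to 39319157, plus strand) and Cyp2c70 (40141797 to 40175777, minus strand) were the outermost of 9 neighbours, and Cyp2c23 (43993451 to 44017653, minus strand) stood apart from them. Cyp2c40 (39754292 to 39801258) and Cyp2c69 (39831103 to 39875243) were side by side on the minus strand. Their coding sequences were 97.9% identical. The Cyp2c37, Cyp2c50 and Cyp2c54 coding sequences were 95.1% to 96.1% identical to each other, and those of Cyp2c38 and Cyp2c39 were 94.2% identical. Cyp2c70 was the odd gene of the cluster, with 71.6% to 74.3% identity to the other members.

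Because reads matching several places were not counted, the share of each transcript that no other gene holds bears on its count. Of all 85-base windows of the reference transcript, 64.5% were found in Cyp2c40 alone and 60.2% in Cyp2c69 alone, while Cyp2c69 shared 33.0% of its windows with Cyp2c40. The share was 86.9% for Cyp2c50, 91.1% for Cyp2c37, 93.8% for Cyp2c54 and 96.7% or more for the other 5 genes. Counts of Cyp2c40 and Cyp2c69 were therefore uncertain as levels, and reads of each could be lost or, where Balb/c differs from the reference strain, be given to the other.

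**Figure D1:**
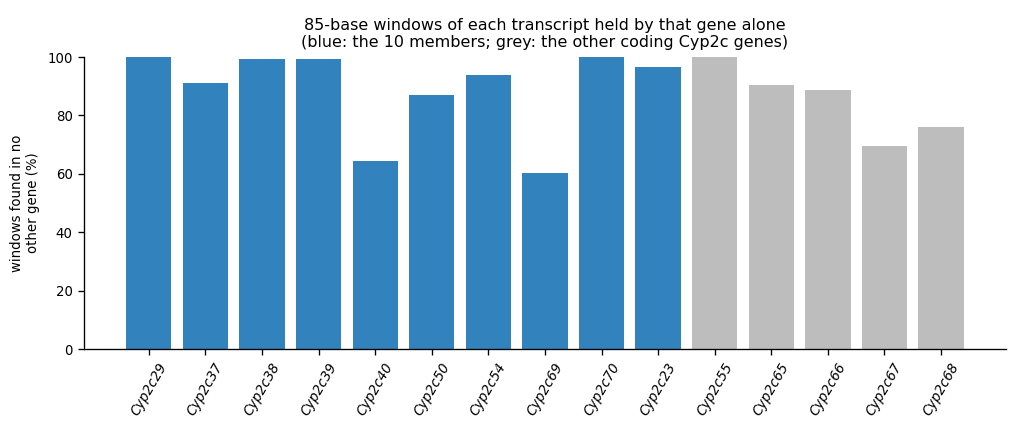
Share of the 85-base windows of each reference transcript (vertical axis, percent) that were found in no other annotated gene, for the 10 members (blue) and the other 5 coding Cyp2c genes (grey). The lowest bars among the members are those of Cyp2c69 at 60.2% and Cyp2c40 at 64.5%.

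Upstream sequences are given for the neighbours Cyp2c40 and Cyp2c69, which had large falls under CCl4, for Cyp2c38, which had a fall of similar size, and for Cyp2c70, for which no fall was called. They are RefSeq sequences (table of build GRCm38.p6), each found at 1 place on GRCm39 chromosome 19. Each reads 5′ to 3′ on the strand of its gene and stops before the annotated transcript start. Capitals mark CAAAGTCCA, a form of the site bound by the nuclear receptor HNF4A. The Cyp2c40 stretch is chr19:39801259-39801508, that of Cyp2c69 chr19:39875244-39875463, that of Cyp2c70 chr19:40175732-40175980 and that of Cyp2c38 chr19:39451548-39451769, all on the minus strand.
Cyp2c40: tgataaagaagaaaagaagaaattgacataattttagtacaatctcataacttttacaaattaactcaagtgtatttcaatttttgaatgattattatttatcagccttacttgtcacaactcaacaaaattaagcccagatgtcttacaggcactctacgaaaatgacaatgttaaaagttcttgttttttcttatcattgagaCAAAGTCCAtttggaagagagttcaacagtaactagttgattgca
Cyp2c69: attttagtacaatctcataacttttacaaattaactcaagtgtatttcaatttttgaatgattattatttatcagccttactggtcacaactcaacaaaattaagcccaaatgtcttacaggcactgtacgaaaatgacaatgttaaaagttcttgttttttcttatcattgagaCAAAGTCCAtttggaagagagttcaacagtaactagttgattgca
Cyp2c70: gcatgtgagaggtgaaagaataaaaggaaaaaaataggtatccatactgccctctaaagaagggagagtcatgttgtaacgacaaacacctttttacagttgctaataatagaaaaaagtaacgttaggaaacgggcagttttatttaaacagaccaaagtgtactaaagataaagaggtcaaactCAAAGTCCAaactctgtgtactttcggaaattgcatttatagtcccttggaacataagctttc
Cyp2c38: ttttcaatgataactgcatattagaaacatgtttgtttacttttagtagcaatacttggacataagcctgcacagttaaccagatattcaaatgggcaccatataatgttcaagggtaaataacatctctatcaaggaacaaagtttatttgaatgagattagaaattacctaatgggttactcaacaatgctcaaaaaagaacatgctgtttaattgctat

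With the RefSeq start as position 0, the capitals ran from -45 to -37 in Cyp2c40, from -75 to -67 in Cyp2c69 and from -64 to -56 in Cyp2c70. The RefSeq start lay 30 bases past the annotated start in Cyp2c69, 1 in Cyp2c70 and 0 in Cyp2c40. From the annotated start, the capitals of Cyp2c40 and Cyp2c69 were equally far. These 3 genes alone held the letters among the 8 members with a promoter in the table, on either strand of a 300-base window. The letters were in 0.48% of 32544 promoters. Over 270 aligned bases the Cyp2c40 and Cyp2c69 promoters were 98.9% identical. TATAAA was in 6 of the 8 (13.6% of all promoters). It stood wholly before the RefSeq start on the strand of the gene in Cyp2c29 and Cyp2c38 only. In Cyp2c40 and Cyp2c69 it lay past that start, in Cyp2c39 across it, and in Cyp2c70 on the opposite strand. TTGCNNAAT, a form of the C/EBP site, was in that of Cyp2c37 alone (2.41% of all), and neither the STAT form TTCNNNGAA (8.33% of all) nor the HNF1 form GTTAATNAT (0.81% of all) was in any of the 8. The matches in members did not overlap one another. CAAAGTCCA was also in the promoters of Cyp2c65, Cyp2c67 and Cyp2c68, coding Cyp2c genes outside the members. Among the members it stood before genes that fell and before Cyp2c70, and its part in the falls was not tested.

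In control livers Cyp2c29, an arachidonic acid epoxygenase, had the highest mean level per transcript length, at 1269 ± 544 CPM per kb (SD, n = 4). It was followed by Cyp2c70 at 616 ± 72.0, Cyp2c50 at 482 ± 38.3, Cyp2c37 at 356 ± 79.1, Cyp2c39 at 235 ± 44.2 and Cyp2c54 at 157 ± 52.4 CPM per kb. The lower levels were those of Cyp2c69 at 96.7 ± 45.6, Cyp2c40 at 69.3 ± 17.8, Cyp2c38 at 51.7 ± 10.7 and Cyp2c23 at 19.4 ± 4.51 CPM per kb. Neighbours in this order differed by more than the sum of their SDs in only 4 places, namely Cyp2c29 above Cyp2c70, Cyp2c70 above Cyp2c50, Cyp2c50 above Cyp2c37 and Cyp2c38 above Cyp2c23. Cyp2c29 alone made up 36.7% of the summed level of the 10 members, and Cyp2c70 made up 18.9%.

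In livers without CCl4, the treatments left the members at levels for which the main test called no difference. With 4MU against control, 0 of the 10 passed the threshold by the edgeR quasi-likelihood test, DESeq2 or limma-voom, and 1 had an unadjusted p under 0.05, against 0.00709% of all tested genes called. That gene was Cyp2c69, at 205, 226, 147 and 58.5 CPM in the 4 control livers and 24.5, 92.2 and 31.6 CPM in the 4MU livers. The ranges overlapped, since control mouse 4 lay below 4MU mouse 2, and the log2 fold change was -1.68 ± 0.52 (SE; adjusted p = 0.39, edgeR). Cyp2c69 was called in 1 of 14 alternatives, edgeR without the filter on low counts (adjusted p = 3.36e-06). With siLuc-LNP against control and with siHAS2-LNP against siLuc-LNP, 0 of 10 were called by any of the 3 tools and 0 had an unadjusted p under 0.05, while 0.213% and 0.0425% of all genes were called.

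**Figure D2:**
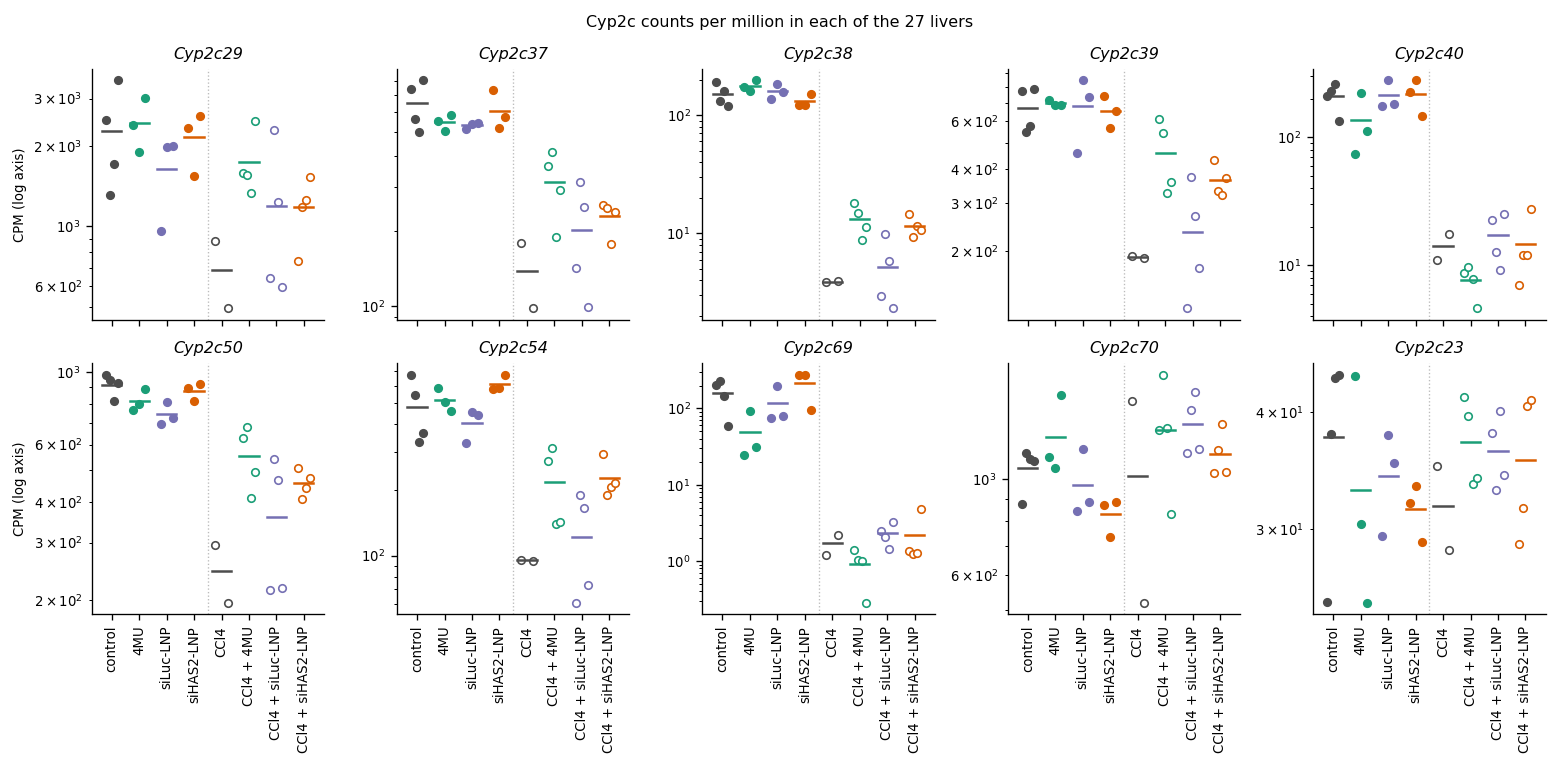
Level of each of the 10 members (one panel per gene, CPM on a log axis) in every liver, by group. In the panels of Cyp2c38, Cyp2c40 and Cyp2c69 every CCl4-treated liver lies far below the livers without CCl4, and in those of Cyp2c70 and Cyp2c23 the groups overlap.

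The comparison of CCl4 with control asked what 2 weeks of the toxin alone did. Of the 10 members, 8 fell, against 16.1% of all tested genes called lower (edgeR quasi-likelihood test, Benjamini-Hochberg adjustment, 2-sided). The falls ran from 3.29-fold for Cyp2c29 to 90.9-fold for Cyp2c69. The median log2 fold change was -2.07 over the members and -0.023 over all genes tested. Cyp2c70 and Cyp2c23 did not pass the test.

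The deepest falls were those of Cyp2c69, Cyp2c38 and Cyp2c40. Cyp2c69, whose substrates are less well described, was at 205, 226, 147 and 58.5 CPM in control and at 1.22 and 2.22 CPM in CCl4. Its log2 fold change was -6.51 ± 0.83 (adjusted p = 1.83e-06, edgeR). All 14 CCl4-treated livers, at 0.285 to 4.81 CPM, lay below all 13 others, at 24.5 to 278 CPM.

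Cyp2c38, an arachidonic acid epoxygenase, was at 189, 132, 159 and 119 CPM in control and at 3.89 and 3.92 CPM in CCl4. This was a 38.3-fold fall, with a log2 fold change of -5.26 ± 0.47 (adjusted p = 8.95e-09, edgeR). Cyp2c40, which hydroxylates arachidonic acid, was at 212, 232, 261 and 135 CPM in control and at 10.95 and 17.5 CPM in CCl4. It fell 14.7-fold, with a log2 fold change of -3.88 ± 0.56 (adjusted p = 1.02e-05, edgeR). For these genes too, the control and CCl4 ranges were far apart.

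The 3 closely similar genes Cyp2c37, Cyp2c50 and Cyp2c54, which oxidise arachidonic acid, fell less. Cyp2c37 was at 743, 561, 499 and 803 CPM in control and at 179 and 97.8 CPM in CCl4 (log2 fold change -2.23 ± 0.38, adjusted p = 7.29e-05, edgeR). Cyp2c50 was at 984, 947, 815 and 924 CPM in control and at 296 and 196 CPM in CCl4 (log2 fold change -1.90 ± 0.31, adjusted p = 4.00e-05). Cyp2c54 was at 676, 545, 333 and 365 CPM in control and at 95.8 and 94.4 CPM in CCl4 (log2 fold change -2.33 ± 0.42, adjusted p = 0.00015). In each of the 3, both CCl4 livers were under every control liver.

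Cyp2c39, the member that acts on retinoic acid, was at 775, 547, 576 and 783 CPM in control and at 192 and 189 CPM in CCl4. It fell 3.51-fold (log2 fold change -1.81 ± 0.34, adjusted p = 0.00025, edgeR). Cyp2c29 was at 2504, 1315, 1716 and 3514 CPM in control and at 880.2 and 495 CPM in CCl4. It fell 3.29-fold (log2 fold change -1.72 ± 0.49, adjusted p = 0.0093, edgeR). Without CCl4 mouse 2 it did not pass (log2 fold change -1.34, adjusted p = 0.16).

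Cyp2c70, the muricholic acid enzyme, was at 876, 1148, 1109 and 1101 CPM in control and at 1515 and 519 CPM in CCl4. The 2 CCl4 livers lay on either side of the control range, and the log2 fold change was -0.058 ± 0.29 with a 95% interval from -0.67 to 0.55 (adjusted p = 0.90, edgeR). Left without CCl4 mouse 1 it was called lower, at -1.01, and without CCl4 mouse 2 it stood at 0.54 and was not called. Each of these values compares control with 1 CCl4 liver, with the spread taken from the other groups. In CCl4 mouse 2 the hepatocyte, pericentral and periportal marker sums were also the lower of the pair, at 92316, 936 and 7498 CPM against 150180, 1919 and 12126 CPM, and the cycling marker sum was the higher, at 552 against 289 CPM. Their part in the Cyp2c values of this mouse was not tested.

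Cyp2c23, an arachidonic acid epoxygenase, was at 25.1, 37.8, 43.5 and 43.8 CPM in control and at 34.99 and 28.5 CPM in CCl4. Both CCl4 livers were within the control range, and the log2 fold change was -0.24 ± 0.21 with a 95% interval from -0.68 to 0.19 (adjusted p = 0.39, edgeR). An interval of this width does not show that the level was kept.

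The same question was put to each treated arm, in which both groups received the same agent. In CCl4 + 4MU against 4MU 4 members fell, against 10.5% of all genes called lower, and in CCl4 + siLuc-LNP against siLuc-LNP 7 fell, against 11.2%. In CCl4 + siHAS2-LNP against siHAS2-LNP 7 fell, against 5.09%. Cyp2c38, Cyp2c40, Cyp2c54 and Cyp2c69 fell in all 4 arms.

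The log2 fold change of Cyp2c69 was -5.76 ± 0.62 with 4MU, -5.65 ± 0.59 with siLuc-LNP and -6.86 ± 0.63 with siHAS2-LNP. For Cyp2c40 the 3 values were -4.14 ± 0.43, -3.60 ± 0.42 and -3.93 ± 0.43. Both genes were thus deeply lowered by CCl4 whichever agent was given. For Cyp2c38 the values were -3.73 ± 0.32 with 4MU, -4.94 ± 0.34 with siLuc-LNP and -3.50 ± 0.32 with siHAS2-LNP (adjusted p of 9.06e-08 or less, edgeR).

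With 4MU in both groups, Cyp2c29 (log2 fold change -0.49), Cyp2c37 (-0.79 ± 0.29, adjusted p = 0.053, edgeR), Cyp2c39 (-0.60) and Cyp2c50 (-0.57) did not pass. For Cyp2c37 the test was passed in 7 of 14 alternatives, DESeq2 and limma-voom among them, with adjusted p from 0.0098 to 0.16. Cyp2c37, Cyp2c39 and Cyp2c50 fell in the siLuc-LNP arm, by 1.40, 1.53 and 1.04 on the log2 scale, and in the siHAS2-LNP arm, by 1.41, 0.84 and 0.94. The call of Cyp2c39 in the siHAS2-LNP arm (adjusted p = 0.043) was lost in 7 of 14 alternatives, among them the replicate block, with adjusted p up to 0.14, and that of Cyp2c50 in the siLuc-LNP arm was lost when the fit held those 2 groups alone. Cyp2c29 was not called in the siLuc-LNP arm (-0.47, adjusted p = 0.42, edgeR) or the siHAS2-LNP arm (-0.87, adjusted p = 0.15). Cyp2c70 stood at 0.052, 0.47 and 0.46 and Cyp2c23 at 0.17, 0.087 and 0.17 in the 4MU, siLuc-LNP and siHAS2-LNP arms, none of them called.

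Over all arms together, 6 members (Cyp2c37, Cyp2c38, Cyp2c40, Cyp2c50, Cyp2c54 and Cyp2c69) had every one of the 14 CCl4-treated livers below every one of the 13 others, which held for 1.37% of all genes tested. Cyp2c29, Cyp2c39, Cyp2c70 and Cyp2c23 overlapped. The pericentral marker list moved with these genes, with 8, 6, 7 and 5 of its 10 genes called lower in the arms without further agent, with 4MU, with siLuc-LNP and with siHAS2-LNP. In CCl4 against control, where 16.1% of all genes were called lower, 3 of 10 periportal and 4 of 9 hepatocyte markers were also called lower. Called higher were 6 of 8 stellate cell, 4 of 6 monocyte, 2 of 5 ductal and all 5 cycling markers. The share of all genes called higher is not given here. Of the Kupffer cell markers Timd4 was lower and Marco higher, and of the lymphocyte markers Cd79a was lower. Of the endothelial markers Stab2 was lower, and Kdr and Lyve1 were higher. The summed ductal markers were at 34.5 to 77.0 CPM in control and at 241 to 297 CPM in CCl4, and the cycling markers at 6.38 to 10.8 and at 289 to 552 CPM. The part of these markers in the falls was not tested.

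**Figure D3:**
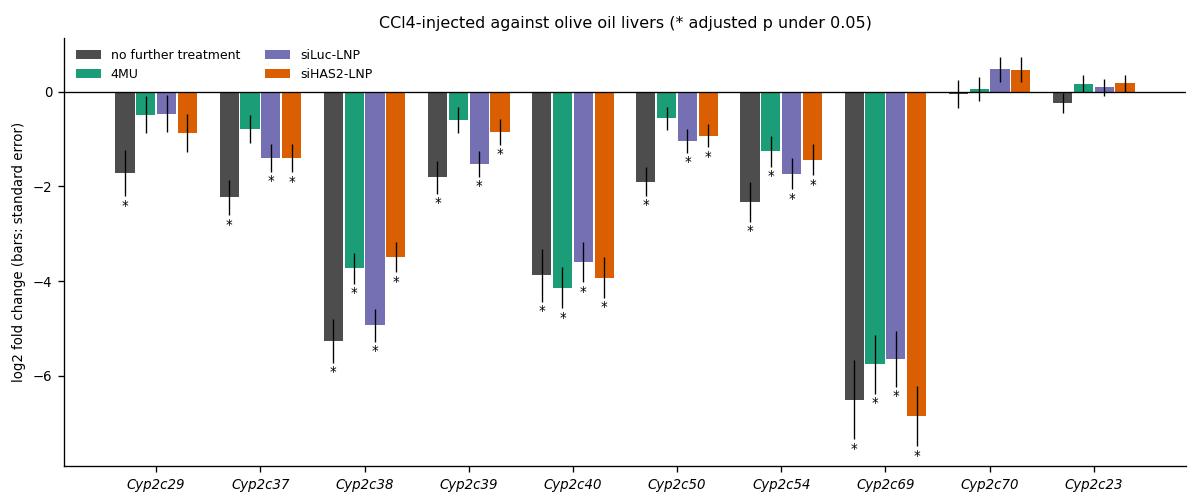
Log2 fold change of each member between CCl4 and olive oil livers (vertical axis, bars from 0, lines showing the standard error) in the arms with no further treatment, 4MU, siLuc-LNP and siHAS2-LNP, with asterisks at an adjusted p under 0.05. Bars of Cyp2c38, Cyp2c40 and Cyp2c69 reach from -3.50 to -6.86 in all 4 arms, while those of Cyp2c70 and Cyp2c23 stay between -0.24 and 0.47.

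The comparisons within CCl4-treated livers asked whether the agents changed the injured liver. In CCl4 + 4MU against CCl4, 5 members were higher, against 8.28% of all genes called higher, and in CCl4 + siHAS2-LNP against CCl4, 3 were higher, against 7.11%. In CCl4 + siLuc-LNP against CCl4, 0 were called by edgeR, DESeq2 or limma-voom and 0 had an unadjusted p under 0.05. Their log2 fold changes were 0.19 to 0.79. Of all genes, 0.0567% were called higher, and the share called lower is not given here. These 3 comparisons share the same 2 CCl4 mice.

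Cyp2c38 was at 18.2, 15.0, 8.76 and 11.4 CPM in CCl4 + 4MU and at 14.7, 9.28, 11.6 and 10.7 CPM in CCl4 + siHAS2-LNP, all above the 3.89 and 3.92 CPM of CCl4. Its log2 fold change was 1.77 ± 0.40 (adjusted p = 0.0043, edgeR) with 4MU and 1.57 ± 0.39 (adjusted p = 0.011) with siHAS2-LNP. Even so, all 8 livers were below the lowest control liver, at 119 CPM.

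Cyp2c50 was at 629, 678, 411 and 493 CPM in CCl4 + 4MU and at 509, 409, 442 and 473 CPM in CCl4 + siHAS2-LNP, against 296 and 196 CPM in CCl4. The log2 fold changes were 1.17 ± 0.29 (adjusted p = 0.0087, edgeR) and 0.90 ± 0.29 (adjusted p = 0.039). Cyp2c54 was at 272, 313, 139.5 and 142 CPM in CCl4 + 4MU and at 293, 190.1, 207 and 215 CPM in CCl4 + siHAS2-LNP, against 95.8 and 94.4 CPM in CCl4. For this gene the values were 1.19 ± 0.39 (adjusted p = 0.038) and 1.25 ± 0.40 (adjusted p = 0.036). In neither gene did a treated liver overlap the CCl4 livers.

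Cyp2c37 and Cyp2c39 were called higher with 4MU, by 1.19 ± 0.36 (adjusted p = 0.023, edgeR) and 1.27 ± 0.33 (adjusted p = 0.011). Cyp2c37 was at 364, 415, 189 and 292 CPM and Cyp2c39 at 610, 542, 328 and 360.1 CPM in the 4 CCl4 + 4MU livers, the lowest of them still above both CCl4 livers. With siHAS2-LNP the 2 genes stood at 0.73 (adjusted p = 0.16) and 0.93 (adjusted p = 0.055) and did not pass. Cyp2c29 stood at 1.34 ± 0.48 with 4MU (adjusted p = 0.054) and 0.78 with siHAS2-LNP (adjusted p = 0.28). Some alternatives did call these genes, DESeq2 among them. They were 4 of 13 for Cyp2c29 with 4MU and 3 of 13 for Cyp2c39 with siHAS2-LNP.

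Cyp2c40 and Cyp2c69 had negative values with 4MU that did not pass the test. Cyp2c40 was at 8.78, 9.67, 7.83 and 4.63 CPM in CCl4 + 4MU, each under the 10.95 and 17.5 CPM of CCl4, with a log2 fold change of -0.89 ± 0.46 and a 95% interval from -1.83 to 0.053 (adjusted p = 0.17, edgeR). Cyp2c69 was at 1.38, 1.05, 0.998 and 0.285 CPM, from 8 to 32 counts a library. Its log2 fold change was -0.94 ± 0.74, with an interval from -2.45 to 0.58 (adjusted p = 0.39, edgeR). With siHAS2-LNP the 2 genes stood at 0.0018 and 0.082. Neither difference was called, and the intervals allow a further fall as well as little change.

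These calls depended on single livers. Leaving out a CCl4 mouse leaves 1, whose spread is then assumed to be like that of the other groups. Without CCl4 mouse 2, 0 of the 10 members were called by edgeR in CCl4 + 4MU or CCl4 + siHAS2-LNP against CCl4, and 4 and 3 of them had an unadjusted p under 0.05. Cyp2c38 then stood at 1.74 and 1.54, Cyp2c54 at 1.15 and 1.21 and Cyp2c39 at 1.23 and 0.89 in the 2 comparisons, while Cyp2c50 stood at 0.87 and 0.60 and Cyp2c37 at 0.78 and 0.32. Without CCl4 mouse 1, Cyp2c37, Cyp2c38, Cyp2c50 and Cyp2c70 were called higher with 4MU, and Cyp2c50 and Cyp2c70 with siHAS2-LNP. CCl4 + siLuc-LNP then had 1 call, Cyp2c70, at 1.36, a value set by the remaining CCl4 liver. The siHAS2-LNP count also dropped from 3 to 1 without CCl4 + siHAS2-LNP mouse 1, 3 or 4 and with limma-voom, and the 4MU count dropped to 3 without CCl4 + 4MU mouse 2. With 4MU, Cyp2c54 also lost its call without CCl4 mouse 1 and without CCl4 + 4MU mouse 1 or mouse 2.

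siHAS2-LNP was also set against siLuc-LNP, the particle with the non-targeting siRNA, among CCl4-treated livers. Here 0 of the 10 members were called by edgeR or limma-voom, 1 by DESeq2, and 3 had an unadjusted p under 0.05. Of all genes, 0.786% were called higher, and the share called lower is not given here. Cyp2c38 was at 14.7, 9.28, 11.6 and 10.7 CPM with siHAS2-LNP and at 2.94, 9.80, 5.82 and 2.32 CPM with siLuc-LNP, and the groups overlapped through CCl4 + siLuc-LNP mouse 2. Its log2 fold change was 1.16 ± 0.30 (adjusted p = 0.057, edgeR). Cyp2c54 stood at 0.89 ± 0.31 (adjusted p = 0.14) and Cyp2c39 at 0.63 ± 0.26 (adjusted p = 0.21), and the other 7 lay between -0.35 and 0.34. The siHAS2-LNP livers were thus not told apart from the siLuc-LNP livers for these genes by the main test.

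Whether CCl4 acted differently under an agent was tested with an interaction term. For 4MU, 1 member was called, Cyp2c50, whose change under CCl4 was less negative with 4MU by 1.33 ± 0.38 on the log2 scale (adjusted p = 0.041, edgeR), against 5.67% of all genes called. Without CCl4 mouse 2 none of the 10 was called. Cyp2c38 stood at 1.53 and Cyp2c37 at 1.44, each with an adjusted p of 0.059. For siLuc-LNP 0 were called (1 at an unadjusted p under 0.05, 0.00709% of all genes called), and for siHAS2-LNP over siLuc-LNP 0 were called (1 at an unadjusted p under 0.05, 0.0354% of all genes called), by edgeR, DESeq2 and limma-voom alike.

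**Figure D4:**
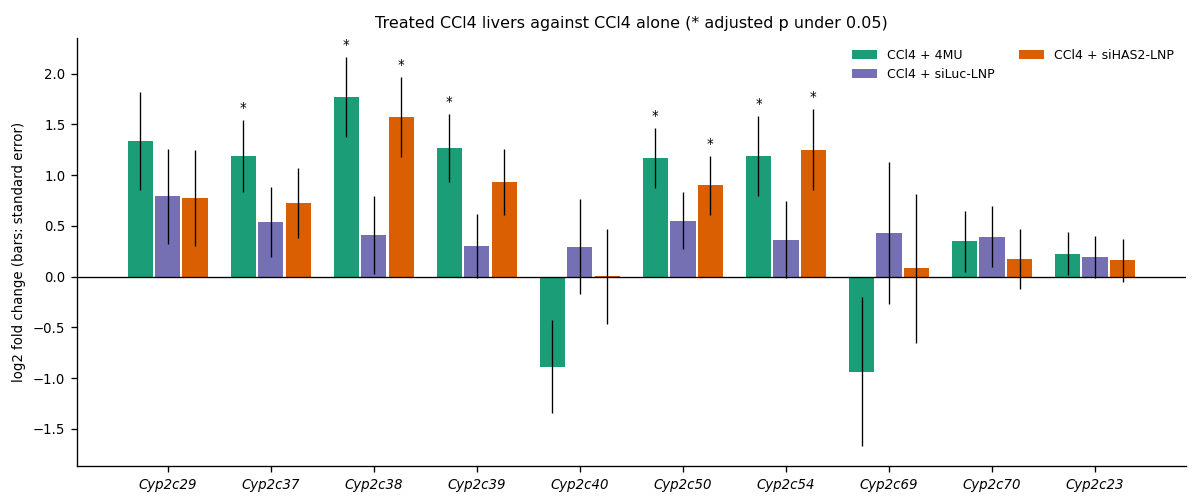
Log2 fold change of each member against CCl4 alone in CCl4-treated livers given 4MU, siLuc-LNP or siHAS2-LNP (vertical axis, with standard error). Cyp2c38, Cyp2c50 and Cyp2c54 are called higher with 4MU and with siHAS2-LNP, and Cyp2c40 and Cyp2c69 lie at -0.89 and -0.94 with 4MU without passing the test.

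The unequal falls changed the makeup of the Cyp2c mRNA. Summed over the 10 members, the level was 2859 to 4074 CPM per kb in control, 1751 and 856 CPM per kb in the 2 CCl4 mice and 2015 to 2789 CPM per kb in CCl4 + 4MU. It was 1297 to 2801 CPM per kb in CCl4 + siLuc-LNP and 1690 to 2079 CPM per kb in CCl4 + siHAS2-LNP. Every CCl4 + 4MU liver was below every control liver and above both CCl4 livers. The CCl4 + siLuc-LNP and CCl4 + siHAS2-LNP livers were also below every control liver. The lowest liver of each of these groups lay between the 2 CCl4 livers, as did the CCl4 + siLuc-LNP median, at 1741 CPM per kb.

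Cyp2c70 made up 18.9% of the sum in control and 50.4% and 35.3% in the 2 CCl4 mice. It was 30.9% ± 8.33 in CCl4 + 4MU, where it ran from 19.5% to 37.8% and overlapped the control range of 14.1% to 23.4%. It was 34.8% ± 4.00 in CCl4 + siHAS2-LNP and 44.0% ± 10.4 in CCl4 + siLuc-LNP (SD, n = 4 each), while in the treated olive oil groups its mean share was 15.2% to 21.3%. Cyp2c69 went from 3.06% in control to 0.0422% and 0.158% in the 2 CCl4 mice, and Cyp2c38 from 1.58% to a mean of 0.117%. These shares rise for a gene whose own level does not, as the rest of the sum falls.

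**Figure D5:**
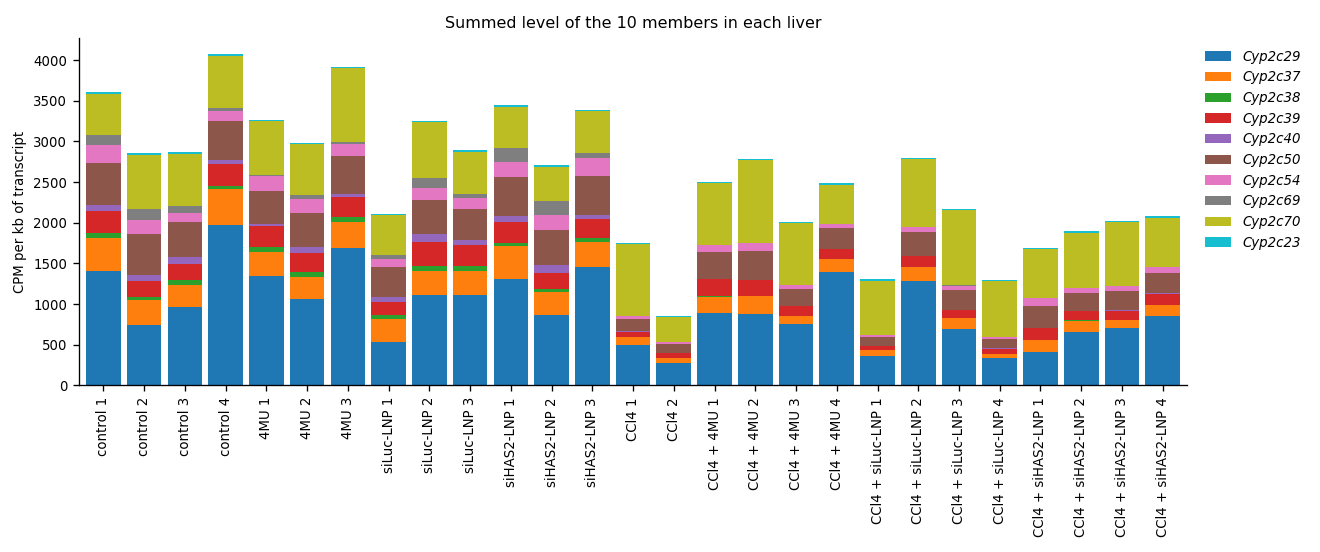
Summed level of the 10 members in every liver (vertical axis, CPM per kb), with 1 bar a liver, stacked by gene. The bar of CCl4 mouse 2 is the lowest, at 856 CPM per kb, against 2859 to 4074 in control, and the largest part of both CCl4 bars is Cyp2c70.

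How the members varied together over livers is given as a description, since libraries share group and depth. Spearman's rho of Cyp2c40 with Cyp2c69 was 0.951 over all 27 livers, 0.819 over the 13 without CCl4 and 0.793 over the 14 with it, for genes that also share sequence windows. Cyp2c37 with Cyp2c50 gave 0.958, 0.698 and 0.938. Cyp2c29 with Cyp2c40 gave 0.33 over all livers, -0.63 without CCl4 and -0.40 with it, so that the sign turned within the arms. Cyp2c70 with the other members gave -0.46 to 0.35 over all livers.

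Outside the family, the gene most like Cyp2c38 over the 27 livers was Cyp2e1, the P450 that activates CCl4 (rho 0.921, with 0.960 over the 14 CCl4-treated livers and 0.341 over the 13 others). Cyp2c37 and Cyp2c50 were both closest to Sult2a2, a hydroxysteroid sulfotransferase (rho 0.949 and 0.934), and Cyp2c39 to Aldh3a2, the fatty aldehyde dehydrogenase (0.948). Cyp2c54 was closest to Sugct (0.937), Cyp2c40 to Chic1 (0.924) and Cyp2c69 to Elovl3, a fatty acid elongase (0.884). The likeness was looser for Cyp2c70 (Hnmt, histamine N-methyltransferase, 0.758) and Cyp2c23 (Pde9a, a cyclic GMP phosphodiesterase, 0.658). Within the arms some of these values were lower. Without and with CCl4, Cyp2c54 with Sugct gave 0.538 and 0.912, Cyp2c69 with Elovl3 0.802 and 0.348, and Cyp2c70 with Hnmt 0.758 and 0.341.

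Of the other 5 coding Cyp2c genes, 3 had enough reads to test. In CCl4 against control Cyp2c68, whose coding sequence is 98.1% identical to that of Cyp2c40, fell by 0.92 ± 0.16 on the log2 scale (adjusted p = 9.61e-05, edgeR). Cyp2c67, 97.7% identical to Cyp2c40, stood at -0.15 (adjusted p = 0.76). Cyp2c55, a lowly expressed member of the family, rose by 1.46 ± 0.54 (adjusted p = 0.040). These 2 close relatives of Cyp2c40 had smaller values than its own -3.88, and Cyp2c69, also a close relative, had a larger one. Only 69.4% of the windows of Cyp2c67 and 76.0% of those of Cyp2c68 were in no other gene, each sharing most with Cyp2c40, so their counts carry the same doubt as those of Cyp2c40 and Cyp2c69.

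Genes that work beside the Cyp2c enzymes were read from fixed lists in the same comparison, CCl4 against control, where 16.1% of all genes were called lower. Of 12 tested genes for epoxide hydrolases and other fatty acid P450s, 6 fell, among them Ephx2, the soluble epoxide hydrolase that breaks down epoxyeicosatrienoic acids (log2 fold change -1.23 ± 0.26, adjusted p = 0.00085, edgeR), and Cyp2j9 (-2.66), while Cyp4a31 rose (1.48). The median of this list was -1.07. Of 10 bile acid genes, the partners of Cyp2c70, 8 fell, with Cyp7a1, the rate-limiting enzyme of bile acid synthesis, at -3.18 ± 0.65 (adjusted p = 0.00055) and Cyp27a1 at -1.94, and a list median of -1.28. Of 17 other liver P450 genes 10 fell, with Cyp2e1 at -4.17 ± 0.50 (adjusted p = 8.02e-07) and a median of -1.26.

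Further lists held the machinery common to P450 enzymes and its regulators. Of 4 electron donor genes 1 fell, Cyb5a, which encodes cytochrome b5 (-0.91 ± 0.27, adjusted p = 0.011, edgeR), and Por, the reductase, stood at -0.24 (adjusted p = 0.74). Of 10 heme genes 2 fell and 1 rose. Of 7 retinoid genes 2 fell, including Rdh16 (-2.51). Of 18 regulators of hepatic P450 genes 5 fell and 1 rose, with Nr1i3, the constitutive androstane receptor, at -2.31 ± 0.43 (adjusted p = 0.00022) and Cux2, a female-predominant repressor of male-biased liver genes, at -4.27 ± 0.88 (adjusted p = 0.00063).

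In CCl4 + 4MU against CCl4, where 8.28% of all genes were called higher, 6 of the 10 bile acid genes, 6 of the 17 other P450 genes, 5 of the 18 regulators and 3 of the 12 fatty acid genes were higher. Cyp7a1 stood at 2.79, Cyp2e1 at 2.33, Cux2 at 2.47 and Nr1i3 at 1.86 ± 0.42 (adjusted p = 0.0046, edgeR). In CCl4 + siHAS2-LNP against CCl4, where 7.11% were called higher, the counts in the same lists were 5, 4, 4 and 2, with Nr1i3 at 1.5. In each of these comparisons 5 of the 10 pericentral markers were also called higher, and with siHAS2-LNP 1 of them, Oat, was called lower (-0.77). With 4MU, 3 of 9 hepatocyte and 4 of 10 periportal markers were called higher and all 5 cycling markers lower. With siHAS2-LNP, 2 of 10 periportal markers were called higher, and 4 of 5 Kupffer cell, 3 of 8 stellate cell, 3 of 6 endothelial and 2 of 5 cycling markers were called lower. The shares of all genes called lower in these comparisons are not given here, and the part of these markers in the Cyp2c values was not tested.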

How the data were processed

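Whole-liver RNA libraries (poly(A), directional, paired-end) were trimmed by the authors with Trimmomatic and aligned with HISAT2 to GRCm39. The values used are the deposited counts of read pairs per Ensembl gene, made by the authors with featureCounts without multi-mapping reads. The strand setting was not given in the sources used here. GRCm39 is of another strain than Balb/c.

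Groups came from the sample labels. All 27 libraries entered 1 quasi-likelihood fit (edgeR 4.0.16 under R 4.3.3) over the 8 groups, with trimmed mean scaling, a mean of at least 10 counts (14114 genes) and Benjamini-Hochberg adjustment over all genes at 0.05. The 14 comparisons include 3 interactions. Standard errors are the log2 fold change divided by the root of F. The fit was tested on simulated data. Alternatives were DESeq2 1.42.0, limma-voom (limma 3.58.1), no filter, compared groups only, the replicate block and leaving out each library. Levels between genes are CPM per kb of reference transcript. Correlations used log2(CPM + 0.1).

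Besides the 10 members, genes were named from fixed lists and as the nearest gene by Spearman's rho, predicted genes left out. The members and lists were chosen with earlier results of these data known. Nothing in the labels ties libraries to litters or cages, so p-values measure the spread between these samples. Sequences are RefSeq promoters and GENCODE transcripts, and promoters of 2 members and all proteins were not analysed here. The nearest gene of Cyp2c29 is not reported here.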

Additional observations from a re-analysis of the deposited data

Results flagged for a closer look

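Cyp2c69 in CCl4 + siHAS2-LNP mouse 4 was at 4.81 CPM, whereas the other 3 livers of that group were at 1.22 to 1.37 CPM. The gap, divided by the group's range, was past Dixon's 95% critical value for 4 samples. This was 1 of 40 groups of 4 values examined, and chance alone marks about 1 group in 20. The library also had the lowest total, 7044386 counts. Its part in the value was not tested.

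The change of Cyp2c50 under CCl4 differed between mice with and without 4MU, by 1.33 ± 0.38 on the log2 scale (adjusted p = 0.041, edgeR interaction term). The call was lost in 10 of the 20 alternatives, including that without CCl4 mouse 2.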

How the results depend on the processing

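Of 240 recomputed counts of members called, 202 stayed within 1.5 times the reported count. Fold changes of the 35 called values and of part of the uncalled ones were recomputed 927 times. Of these, 835 kept direction and side of the threshold, 44 lost the call, 40 gained it and 8 reversed. A further 75 uncalled values were left out, and 29 of them changed sign, in 75 of 1193 alternatives. They include Cyp2c40 and Cyp2c69 in CCl4 + siHAS2-LNP against CCl4, with 7 and 3 changes in 13 alternatives. None of the 35 called values was among the 8 that reversed, over 488 alternatives. The reversed ones were Cyp2c70 in CCl4 against control (0.25 with all 14 CCl4-treated against all 13 other livers, and -1.01 to 0.54 without each library, the ends being without CCl4 mouse 1 and mouse 2), in the 4MU arm (-0.14 to 0.24, with -0.015 and -0.052 without 4MU mouse 1 and mouse 2 and the lowest without CCl4 + 4MU mouse 2) and in CCl4 + 4MU against CCl4 (-0.26 to 1.30, without CCl4 mouse 2 and mouse 1), and Cyp2c23 in CCl4 against control (0.055, 14 against 13 livers) and in the siLuc-LNP arm (-0.0092 to 0.18, the lowest without siLuc-LNP mouse 1). At an unadjusted p, counts became 7 for CCl4 + 4MU against 4MU, 5 for CCl4 + siHAS2-LNP against CCl4, 3 for siHAS2-LNP against siLuc-LNP under CCl4, 1 for 4MU against control, 5 for the 4MU interaction and 1 for each siRNA interaction. limma-voom gave 1 for CCl4 + siHAS2-LNP against CCl4 and 2 for the 4MU interaction, and DESeq2 gave 1 for siHAS2-LNP against siLuc-LNP under CCl4 and 4 for the 4MU interaction. Without the filter on low counts these were 2 and 4, with 1 for 4MU against control and 1 for the siHAS2-LNP interaction, and with the compared groups only the 4MU interaction had 4. Leaving out each library in turn gave 0 to 6 members for CCl4 + 4MU against CCl4 (3 without CCl4 + 4MU mouse 2), 0 to 3 for CCl4 + siHAS2-LNP against CCl4, 0 to 1 for CCl4 + siLuc-LNP against CCl4, 0 to 1 for siHAS2-LNP against siLuc-LNP under CCl4 and for its interaction (1 without CCl4 + siLuc-LNP mouse 2), 0 to 3 for the 4MU interaction, 7 to 9 for CCl4 against control, and 4 to 5, 7 and 6 to 7 in the treated arms. The lowest counts against CCl4 came without CCl4 mouse 2. The cause was not tested.

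The replicate numbers did not pair the samples, and with the replicate block 2 members were called in the 4MU interaction and 6 in the siHAS2-LNP arm. After CCl4, Cyp2c69 rested on few reads, 8 to 32 counts a library in CCl4 + 4MU and 25 to 36 in CCl4 + siHAS2-LNP.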

Other observations

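Of the coding Cyp2c genes outside the 10 members, Cyp2c65 was found mostly in 1 liver, CCl4 + 4MU mouse 4, with 108 counts or 3.84 CPM, and Cyp2c66 had 0 counts in all 27 libraries. Cyp2c67 was at 104, 134 and 73.9 CPM in 4MU and at 29.4, 36.1, 44.3 and 22.4 CPM in CCl4 + 4MU, a fall of 1.65 on the log2 scale (adjusted p = 0.00022, edgeR). Cyp2c67 was also called lower in the siLuc-LNP arm (log2 fold change -1.235). Its levels were 53.2 to 118 CPM in siLuc-LNP and 29.1 to 59.8 CPM in CCl4 + siLuc-LNP. In the siHAS2-LNP arm it stood at -0.35 and was not called. The interaction of Cyp2c67 between 4MU and CCl4 was -1.51 ± 0.44 (adjusted p = 0.043, edgeR), a sign opposite to that of Cyp2c50. That between siLuc-LNP and CCl4 was -1.09 and was not called.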
